A study of Rattus norvegicus with 2 samples.

Results

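The genes for the proteins of the mitochondrial ribosome were followed in rat cortical neurons of embryonic day 18, in a library treated with control siRNA (siNC) and a library in which siRNA targeted Ythdf3 (siYthdf3). The Ythdf3 protein binds messenger RNA that carries the m6A modification. The members are all rows of the gene table whose symbol begins with Mrpl or Mrps followed by a number, which gave 77 of 21224 rows under 76 symbols, 47 for the large and 30 for the small subunit. The rule distinguishes upper and lower case, and 3 rows written mrpl9, mrpl11 and mrpl24 stand outside it and are given separately. With a single library per treatment, replicate spread is unknown and p-values were not computed. The labels used here name no agent besides the siRNA, and neither the number of embryos nor the time of harvest.

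Mitochondria carry their own ribosome, which translates the few messenger RNAs that mitochondrial DNA encodes, all of them for subunits of the respiratory chain and the ATP synthase. Its ribosomal RNAs come from mitochondrial DNA, while all of its proteins are encoded in the nucleus, made in the cytosol and imported. Many of these proteins descend from bacterial ribosomal proteins, and others were added in the mitochondrial lineage and have no bacterial homologue. Neurons depend on this machinery because oxidative phosphorylation supplies most of their ATP.

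Gene-assigned reads numbered 15392218 for siNC and 22586543 for siYthdf3. Ythdf3 itself was at 9.38 FPKM (reads scaled by gene length and by the total of the library) in siNC and 6.93 FPKM in siYthdf3, a ratio of 0.739 with an interval of 0.675 to 0.809. Every ratio is siYthdf3 over siNC, and its 95% interval, which is exact, reflects read counting alone. All 10 neuronal markers examined were at 15.2 FPKM or more in both libraries. Their summed level was 1102 FPKM in siNC and 1266 FPKM in siYthdf3. Markers of progenitors and dividing cells had a similar sum in siNC, at 1110 FPKM, and one of 598 FPKM in siYthdf3. Vim alone gave 708 FPKM and 357 FPKM of these sums. Eomes was the lowest of the progenitor and dividing-cell markers in ratio, at 4.34 FPKM and 0.743 FPKM. Their 10 members had a median log2 ratio of -0.92, and the neuronal markers one of 0.26, where a log2 ratio is that of siYthdf3 over siNC after 0.5 FPKM was added to each. The 6 microglia markers summed to 7.55 FPKM and 3.60 FPKM, with 1 of them at 0 in siYthdf3, and the 7 matched markers of pericytes, fibroblasts, meninges and endothelium to 6.12 FPKM and 4.0 FPKM, with 1 at 0 in siNC. The 8 astrocyte markers summed to 170.9 FPKM and 243 FPKM with a median log2 ratio of -0.019, and the 7 of the oligodendrocyte lineage to 31.1 FPKM and 18.7 FPKM. The part of these shifts in the values below was not tested. In bulk RNA, fewer cells of a type and less RNA per cell cannot be told apart.

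Mitochondrial ribosomal protein genes were modestly lower in siYthdf3 than in siNC. Of the 77 rows, 74 had a mean of at least 1 FPKM and were compared, and each of these was above 1 FPKM in both libraries. Their median level was 14.3 FPKM in siNC and 11.9 FPKM in siYthdf3. The median log2 ratio was -0.16, with quartiles of -0.29 and -0.030, where all 13172 genes compared had a median of -0.011 and quartiles of -0.17 and 0.14. Below 0 were 59 of 74 members, against 51.9% of all genes. The counting interval lay below 1 for 29 members and above 1 for 2, against 22.2% and 20% of all genes. Interval counts depend on reads, and the members had a median of 746.5 reads over both libraries where all genes compared had 896.5. As a rule of size, a log2 ratio at least 0.32 away from 0 was used. By it 16 members were lower, against 11.4% of all genes, and 1 member was higher, against 8.78%. On the same scale, with 0.5 FPKM added, only Mrpl46 was at least 1.5-fold lower, a size that 3.95% of all genes reached, and only the row Mrps21l was at least 1.5-fold higher, against 2.41%. Without the addition Mrpl10, a low gene, also passed that size, at a ratio of 0.654. Most members were thus lower by a small amount, and few differed by much.

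**Figure D1:**
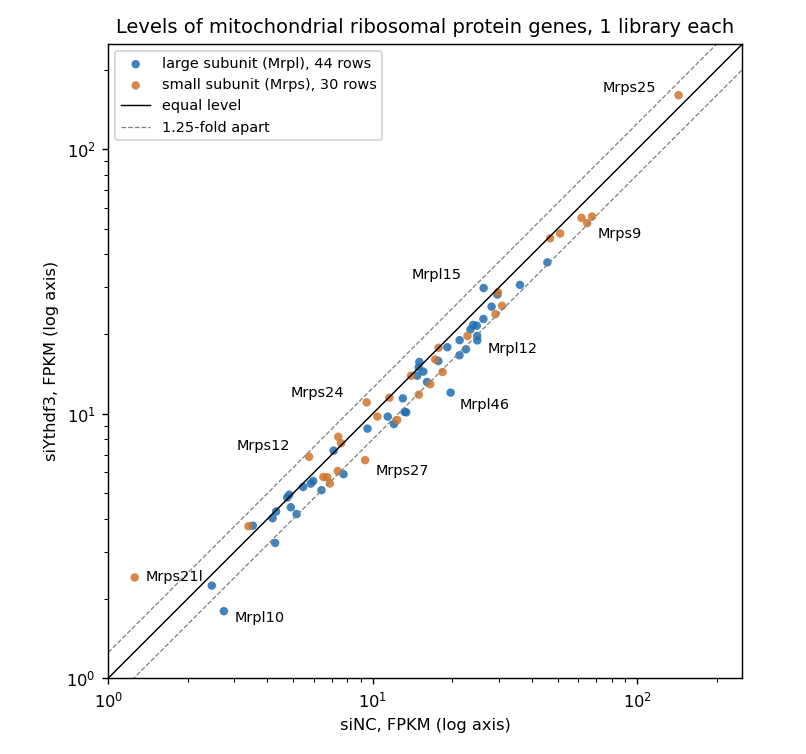
Level of each of the 74 compared rows in siNC (horizontal axis) and siYthdf3 (vertical axis), in FPKM on log axes, with 1 point per row, blue for the large and orange for the small subunit; the solid line marks equal levels and the dashed lines the same fold as 0.32 on the log2 scale. Most points lie just under the line of equal levels, Mrps25 stands apart at the top at 143 and 160 FPKM, and Mrpl46 and Mrps27 lie below the lower dashed line.

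Among the large-subunit genes, 44 rows were compared. Of these, 37 (84.1%) were below 0, against 51.9% of all genes. An interval below 1 was held by 18 (40.9%, against 22.2%), and 11 (25%) were lower by the rule of size, against 11.4%. The lowest was Mrpl46, a protein with no bacterial homologue, at 19.7 FPKM in siNC and 12.0 FPKM in siYthdf3. Its ratio was 0.609 (interval 0.529 to 0.701), from 426 and 381 reads. The deposited table places Mrpl46 (ENSRNOG00000018547) on chromosome 1, 132698601 to 132707628, minus strand. That span lies wholly inside the row of the small-subunit gene Mrps11 (ENSRNOG00000018531), 132680420 to 132717253, plus strand. Neither the build of these coordinates nor the use of strand in counting is stated in the labels or headers, so reads of the pair may not be separated cleanly. Mrps11 was at 29.1 FPKM and 23.8 FPKM, a ratio of 0.817 (interval 0.729 to 0.915). Both genes of the pair were lower, and their intervals do not overlap.

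By the first RefSeq entry of each in the GRCr8 assembly, Mrpl46 and Mrps11 are transcribed away from each other, with 233 bases between their starts. Further entries of these genes were not examined. This stretch, chr1:142117031-142117263, is shown because it lies upstream of both the lowest large-subunit member and a small-subunit member. It is written 5′ to 3′ on the plus strand, so that Mrps11 begins after its last base and Mrpl46 reads leftward from before its first. Capitals mark the only match within it to the 6 promoter motifs searched, TATAAA. The full 300-base window of Mrpl46 also holds the YY1 letters AAGATGGC (both strands searched), outside the stretch shown. No match to the other motifs says only that those letters are not in this stretch.
Mrps11 and Mrpl46: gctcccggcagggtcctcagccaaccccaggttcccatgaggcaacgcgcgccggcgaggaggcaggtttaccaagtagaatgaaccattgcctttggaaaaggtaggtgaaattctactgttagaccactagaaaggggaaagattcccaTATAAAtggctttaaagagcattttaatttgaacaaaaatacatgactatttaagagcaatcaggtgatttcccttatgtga

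Both proteins of the stalk of the large subunit, which recruits translation factors, were lower. Mrpl10, which anchors the stalk, was at 2.74 FPKM in siNC and 1.79 FPKM in siYthdf3, a ratio of 0.654 (interval 0.467 to 0.916) on 75 and 72 reads. Mrpl12, the stalk protein present in several copies per ribosome, was at 24.9 FPKM and 18.9 FPKM, a ratio of 0.761 (interval 0.681 to 0.851) on 598 and 668 reads. The intervals of the 2 genes overlap, and that of Mrpl10 is wide because it had few reads. Its row also overlaps that of Lrrc46 on the other strand, which was at 0.276 FPKM and 0.597 FPKM, too low to be compared. Mrpl2, a core protein close to the site of peptide bond formation, was at 13.4 FPKM and 10.1 FPKM, a ratio of 0.756 (interval 0.625 to 0.915). Mrpl21, another bacterial-type protein, was at 12.0 FPKM and 9.14 FPKM, a ratio of 0.759 (interval 0.637 to 0.906). With Mrpl46 these were the 5 lowest log2 ratios among the compared rows of the large subunit. Mrpl18, Mrpl13, Mrpl40, Mrpl42, Mrpl33 and Mrpl3 made up the rest of the 11 that were lower by the rule of size, with ratios from 0.759 to 0.792.

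The most abundant large-subunit members were Mrpl27, at 45.8 FPKM in siNC and 37.3 FPKM in siYthdf3, Mrpl48 at 36.0 FPKM and 30.7 FPKM, and Mrpl19 at 29.6 FPKM and 28.2 FPKM. Mrpl27, a bacterial-type protein, and Mrpl48, which has no bacterial homologue, had intervals below 1, with ratios of 0.816 and 0.851. Mrpl19 had a ratio of 0.953 (interval 0.851 to 1.07), which includes 1. Mrpl58, a peptidyl-tRNA hydrolase built into the large subunit, was at 28.1 FPKM and 25.4 FPKM, and its interval of 0.797 to 1.02 also includes 1. The least abundant besides Mrpl10 was Mrpl36, at 2.46 FPKM and 2.24 FPKM on 45 and 60 reads. Of the large subunit, only Mrpl15 had an interval above 1. It was at 26.3 FPKM in siNC and 29.9 FPKM in siYthdf3, a ratio of 1.14 (interval 1.06 to 1.22) on 1212 and 2021 reads. The next highest, Mrpl34 and Mrpl22, had log2 ratios of 0.087 and 0.062 and intervals that include 1.

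The small-subunit genes gave 30 rows, all compared. Of these, 22 (73.3%) were below 0, against 51.9% of all genes. An interval below 1 was held by 11 (36.7%, against 22.2%), and 5 (16.7%) were lower by the rule of size, against 11.4%. The lowest was Mrps27, a mitochondria-specific protein with pentatricopeptide repeats, at 9.36 FPKM in siNC and 6.67 FPKM in siYthdf3. Its ratio was 0.712 (interval 0.614 to 0.827) on 352 and 368 reads. Mrps10, a bacterial-type protein of the head of the subunit, followed at 12.4 FPKM and 9.46 FPKM, a ratio of 0.764 (interval 0.653 to 0.895). Mrps17, a bacterial-type RNA-binding protein, has 2 rows on chromosome 12 whose spans, 26948347 to 26951809 and 26948730 to 26951737, nearly coincide. They held 398 and 457 reads in one row and 403 and 463 in the other, each a ratio of 0.783. The 2 rows may thus hold largely the same reads and are not independent. Both count among the 11 intervals below 1 and the 5 rows lower by the rule of size. Mrps9 at 64.7 FPKM and 52.6 FPKM and Mrps33 at 67.5 FPKM and 55.7 FPKM were abundant members with intervals below 1, at ratios of 0.812 (interval 0.756 to 0.872) and 0.825 (interval 0.742 to 0.917).

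Mrps25, a mitochondria-specific protein of the small subunit, went the other way and was by far the most abundant member. It was at 143 FPKM in siNC and 160.0 FPKM in siYthdf3 on 2064 and 3380 reads, a ratio of 1.12 (interval 1.06 to 1.18). This 1 gene made up 19.1% of the summed FPKM of the small subunit in siNC and 22.8% in siYthdf3. Mrps12, which lies at the decoding centre, was at 5.75 FPKM and 6.87 FPKM, with a ratio of 1.19 (interval 0.890 to 1.62) on 73 and 128 reads. Mrps24 and Mrps16 had log2 ratios of 0.21 and 0.13, and their intervals include 1 as well. Mrps21l, a row with a gene-like symbol on chromosome 18, had a log2 ratio of 0.72 from 5 and 14 reads, and its interval of 0.649 to 6.77 includes 1.

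**Figure D2:**
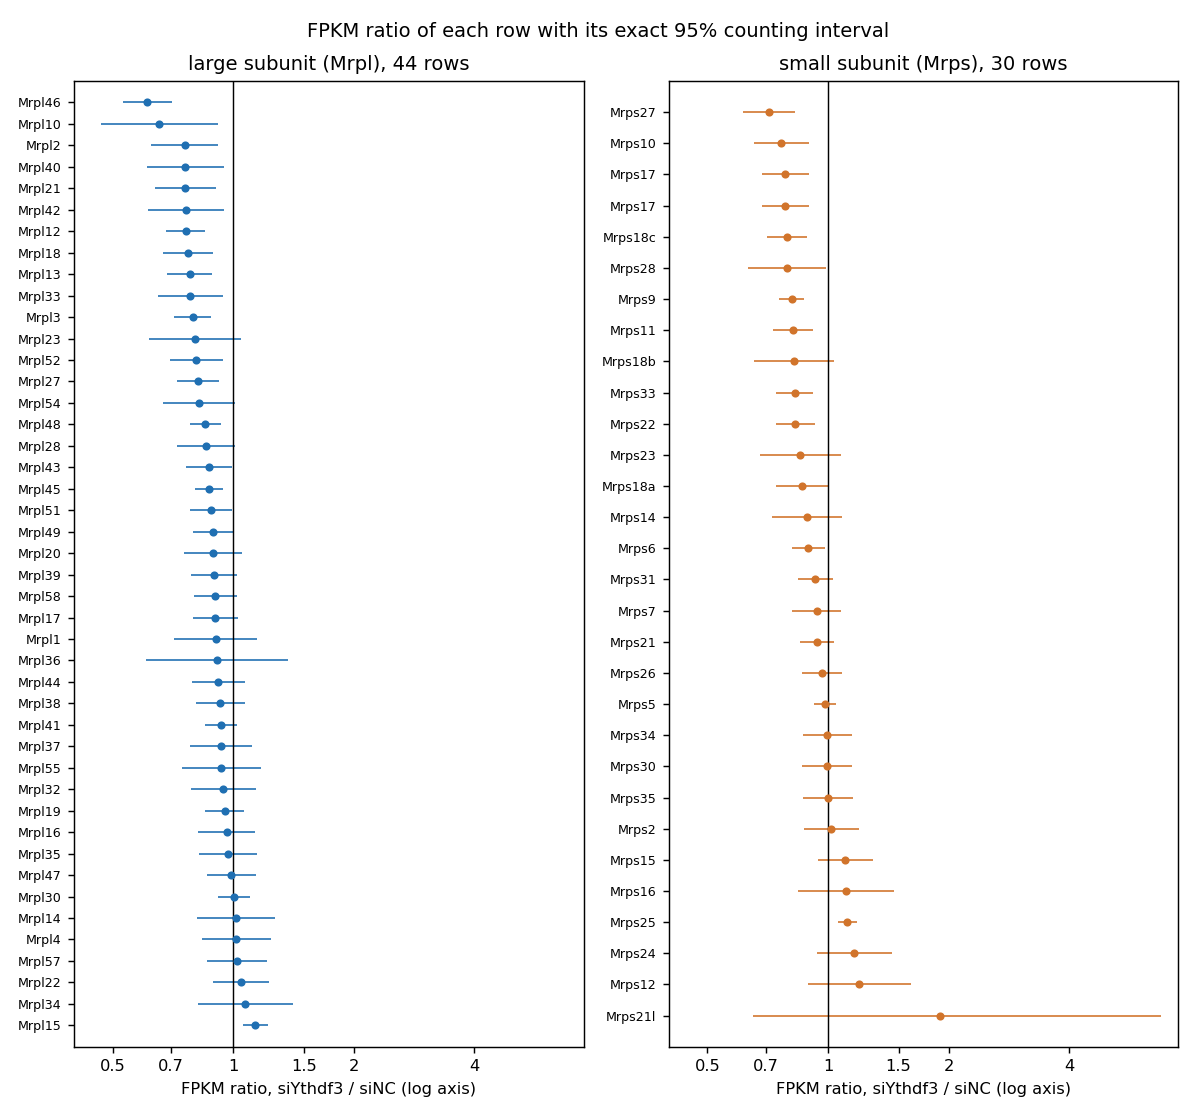
FPKM ratio of siYthdf3 over siNC (horizontal log axis) for each of the 44 large-subunit rows (left) and 30 small-subunit rows (right), sorted by ratio; points are ratios, bars are exact 95% counting intervals, and the vertical line marks a ratio of 1. Bars wholly left of the line belong to 18 large and 11 small rows, and bars wholly right of it to Mrpl15 and Mrps25 only.

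The Mrps18 family holds 3 paralogues of a single bacterial protein that occupy different places in the ribosome. Mrps18c, in the position of the bacterial protein, was at 14.9 FPKM in siNC and 11.8 FPKM in siYthdf3, a ratio of 0.790 (interval 0.705 to 0.884). Mrps18b, also in the small subunit but at a place with no bacterial counterpart, was at 7.38 FPKM and 6.07 FPKM, a ratio of 0.823 (interval 0.654 to 1.04). Mrps18a sits in the large subunit despite its name, and was at 22.8 FPKM and 19.7 FPKM, a ratio of 0.862 (interval 0.740 to 1.01). The 3 intervals overlap one another, so the paralogues could not be set apart at this depth. Mrps30, which also lies in the large subunit, was at 14.0 FPKM and 13.9 FPKM, a ratio of 0.996 (interval 0.863 to 1.15).

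The 3 rows under the limit of 1 FPKM all carry large-subunit symbols of copies. Mrpl42-ps2, named as a pseudogene, was at 0.504 FPKM in siNC and at 0 in siYthdf3, where a row of its length has an upper limit of 0.515 FPKM from 3 reads. Mrpl42l1 was at 0.153 FPKM and 0, with an upper limit of 0.312 FPKM. Mrpl41l1 was at 0.180 FPKM and 0.184 FPKM. No difference was detectable for these rows at this depth. The 3 lower-case rows were all below 0, with log2 ratios of -0.25 for mrpl11, -0.23 for mrpl9 and -0.017 for mrpl24, and only that of mrpl9 had an interval below 1 (ratio 0.846, interval 0.753 to 0.951).

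The large and small subunits were compared as the design of the list invites. By symbol, the median log2 ratio was -0.16 for the large and -0.13 for the small subunit, a difference of -0.029. Members share the same 2 libraries and are no replicates, so this difference was not tested. Placing Mrps18a and Mrps30 with the large subunit, where the assembled ribosome has them, and leaving the unplaced row Mrps21l out gave -0.16 for each, a difference of 0.0015. Without Mrps25 the difference was also 0.0015. Its sign therefore turned with a few rows, and no order of the subunits can be given. Summed FPKM of the large subunit went from 664 in siNC to 579 in siYthdf3, a ratio of 0.873, and that of the small subunit from 753 to 702, a ratio of 0.933. Without Mrps25 the small-subunit sums were 609 and 542, a ratio of 0.890. Without this most abundant gene the ratios of the 2 sums were closer. In reads, the ratio was 0.893 (interval 0.875 to 0.912) for the large and 0.924 (interval 0.905 to 0.944) for the small subunit, and 0.893 (interval 0.872 to 0.914) for the small subunit without Mrps25.

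Members were also split by the origin of the protein. The 45 rows for proteins with a bacterial homologue had a median log2 ratio of -0.14, with 34 (75.6%) below 0. Their intervals lay below 1 for 17 (37.8%) and above 1 for 1 (2.22%). The 28 rows for proteins without one had a median of -0.17, with 25 (89.3%) below 0. Their intervals lay below 1 for 12 (42.9%) and above 1 for 1 (3.57%). Of all genes compared, 51.9% were below 0, 22.2% had an interval below 1 and 20% one above. Mrps18a is counted with the first by its family, although its place in the ribosome has no bacterial counterpart. Moving Mrps18a gave medians of -0.14 over 44 rows and -0.18 over 29. Mrps18b, although of the same family, is counted with the rows without a homologue, so family did not decide every class. Mrps18b was not moved. Within the large subunit the medians were -0.13 for 27 bacterial-type rows and -0.18 for 17 others. Within the small subunit the order was the reverse, at -0.16 for 18 bacterial-type rows and -0.10 for 11 others. Once Mrps18a was moved, the small-subunit medians were -0.16 for 17 and -0.16 for 12. These differences were not tested.

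Of 5 proteins of the mitochondrial ribosome that carry other symbols, 4 had a row, and none had an interval that excludes 1. Dap3, a GTP-binding protein of the small subunit, was at 14.2 FPKM in siNC and 13.5 FPKM in siYthdf3, and Ptcd3, a pentatricopeptide repeat protein of the small subunit, at 13.0 FPKM and 13.2 FPKM. Chchd1, of the small subunit, was at 29.0 FPKM and 29.5 FPKM, and Gadd45gip1, of the large subunit, at 17.1 FPKM and 15.9 FPKM. Their log2 ratios lay between -0.11 and 0.024, in the upper part of the range of the named members.

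Members were compared with the rest of the mitochondrial and cytosolic translation machinery. The 78 rows of cytosolic ribosomal proteins had a median log2 ratio of -0.30, with 73 below 0, 64 intervals (82.1%) below 1 and 0 above. The 74 rows of nuclear-encoded respiratory chain and ATP synthase subunits had a median of -0.17, with 68 below 0. Their intervals lay below 1 for 41 (55.4%) and above 1 for 1, against 22.2% and 20% of all genes. Both of these lists had more reads per row, with medians of 5124.5 and 1360.5 over both libraries, which narrows their intervals. The median of the mitochondrial ribosomal protein genes was thus close to that of the respiratory chain subunits and about midway between that of the cytosolic ribosomal proteins and that of all genes. The 13 protein genes of mitochondrial DNA, the templates of the mitochondrial ribosome, had a median of 64515 reads over both libraries. Of them 6 (46.2%) had an interval below 1 and 2 (15.4%) one above. Their median log2 ratio was -0.0096, and they ranged from -0.29 for Mt-nd3 to 0.057 for Mt-atp8. None of these medians was tested against another. At least 1.5-fold lower with 0.5 FPKM added were, among the cytosolic proteins, 1 row of Rpl38, at 9.46 FPKM in siNC and 4.99 FPKM in siYthdf3, the main row of Rps6 at 301 FPKM and 185 FPKM, and Rps2 at 235 FPKM and 148 FPKM. The symbols Rpl38 and Rps6 stand on several rows. The other row of Rps6, at 2.46 FPKM and 1.51 FPKM on 10 and 9 reads, had a ratio of 0.613 and missed the size only through the addition. The abundant row of Rpl38 was at 56.4 FPKM and 47.4 FPKM. Among the respiratory chain and ATP synthase genes they were Atp5mk and Atp5mpl, with log2 ratios of -0.65 and -0.62 from few reads and with intervals that include 1. The highest of the 2 lists were Rps23l1 at 0.20 and Atp5mkl1 at 0.47, whose intervals include 1 too.

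**Figure D3:**
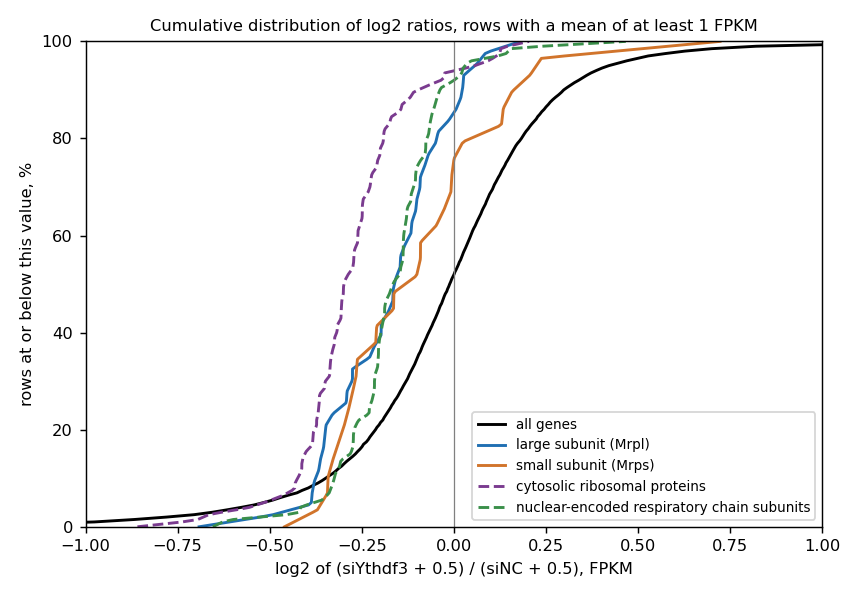
Cumulative share of rows (vertical axis, percent) at or below each log2 ratio of siYthdf3 over siNC (horizontal axis) for all 13172 genes compared, the large and small subunit of the mitochondrial ribosome, cytosolic ribosomal proteins and nuclear-encoded respiratory chain subunits. The curves of both subunits lie left of that of all genes over most of their range and right of that of the cytosolic ribosomal proteins and close to that of the respiratory chain subunits.

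Medians of the lists of factors that act on the mitochondrial ribosome lay between that of the members and that of all genes. The 12 mitochondrial translation factors had a median log2 ratio of -0.10, with 8 below 0, 4 intervals (33.3%) below 1 and 1 above. Among all genes compared, 22.2% had an interval below 1 and 20% one above. Tsfm, the nucleotide exchange factor of the elongation factor Tufm, was the lowest at 6.82 FPKM in siNC and 5.35 FPKM in siYthdf3, and Mtrf1l, a release factor, the highest at 21.8 FPKM and 24.9 FPKM. Of 25 assembly and ribosomal RNA modification entries, 21 rows were compared, with a median of -0.032, 3 intervals (14.3%) below 1 and 0 above. The lowest of these was Mpv17l2, at 4.07 FPKM and 2.64 FPKM, and the highest Mtg1, a GTPase of large-subunit assembly, at 5.57 FPKM and 6.59 FPKM. The 15 genes of mitochondrial transcription and RNA processing had a median of -0.050, with 4 intervals (26.7%) below 1 and 0 above. Pnpt1, the mitochondrial polynucleotide phosphorylase, was lowest at 9.47 FPKM and 7.23 FPKM, and Tefm, the transcription elongation factor, highest at 2.23 FPKM and 2.74 FPKM.

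The 19 genes of mitochondrial aminoacyl-tRNA synthesis were at a median of -0.13. Of these, 5 (26.3%) had an interval below 1 and 1 (5.26%) one above, against 22.2% and 20% of all genes. Sars2, the mitochondrial seryl-tRNA synthetase, was lowest at 3.48 FPKM in siNC and 2.17 FPKM in siYthdf3, and Cars2 highest at 6.19 FPKM and 7.27 FPKM. The 10 genes of protein import, which brings ribosomal proteins into the organelle, were at a median of -0.11. An interval below 1 was held by 4 of them (40%), and one above by 0. Pmpcb, a subunit of the protease that removes import signals, was lowest at 14.6 FPKM and 10.6 FPKM, and Tomm70, an import receptor, highest at 31.7 FPKM and 32.0 FPKM. The 7 regulators of mitochondrial biogenesis went both ways, with a median of -0.036 and 2 intervals (28.6%) on each side of 1. Nrf1, a transcription factor of nuclear genes for mitochondria, was lowest at 6.31 FPKM and 5.66 FPKM, and Ppargc1a, the coactivator PGC-1alpha, highest at 2.91 FPKM and 3.93 FPKM, with a ratio of 1.35 (interval 1.10 to 1.66).

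Gene length moved with the ratio across the table, at a Spearman rho of 0.20 over all genes. Members are short, with a median of 1487.5 bases where all genes compared had 2917 bases, and 63 of the 74 fell in the 4 shortest of 10 length bins. All genes in these 4 bins had median log2 ratios of -0.078, -0.082, -0.073 and -0.059, from the shortest upward, while those of the members there were -0.16, -0.21, -0.20 and -0.092. In all bins together 54 members were below the median of their bin. After a smooth trend of the ratio on length was removed, the members' median was -0.083 and that of all genes -0.015. Lower by the rule of size were then 4 members (5.41%), fewer than the 10.4% of all genes, while 31.1% of members and 22.2% of all genes had an interval below 1. With this trend removed, the members' median was below that of all genes, and their share by the rule of size was not above the background. The trend was fitted over all genes, and the part of length in the members' values was not tested. Among the members themselves, length and log2 ratio had a Spearman rho of 0.11 across 74 rows that share both libraries.

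**Figure D4:**
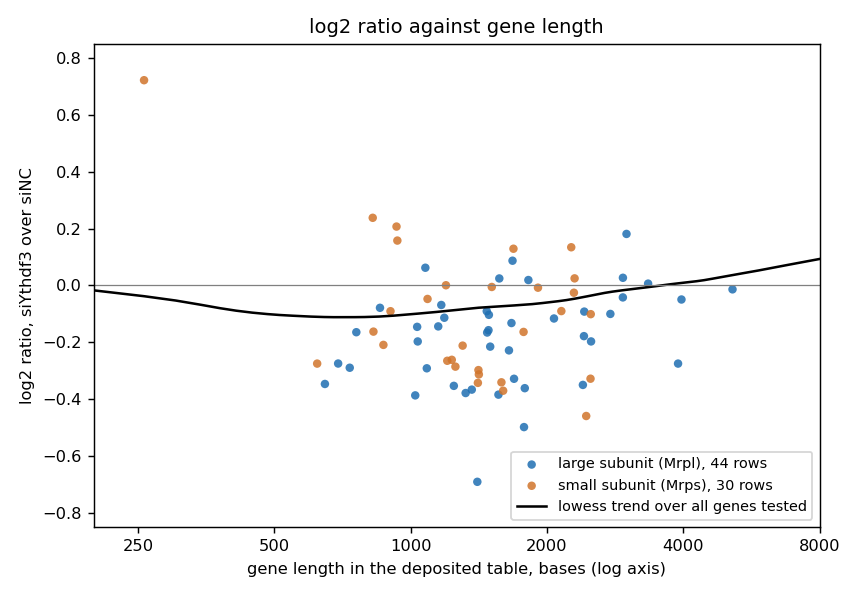
log2 ratio of siYthdf3 over siNC (vertical axis) against gene length in bases (horizontal log axis) for the 74 compared rows, blue for the large and orange for the small subunit; the black line is the smooth trend over all genes compared. Of the 74 points, 52 lie under the line.

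Many members overlap other genes, which matters because counting may not have used strand. Of the 74 rows, 31 overlapped another row of the table on either strand (41.9%, against 30.4% of all genes compared), and 25 overlapped one on the opposite strand. The overlapping rows had a median log2 ratio of -0.27 with 18 intervals below 1 and 0 above, and the 43 rows without overlap one of -0.13 with 11 below and 2 above. Of the rows free of overlap, 25.6% had an interval below 1 and 11.6% were lower by the rule of size. These shares were close to the 22.2% and 11.4% of all genes compared, a background that includes the 30.4% with an overlap. Other shares were further apart, with 79.1% of these rows below 0, against 51.9% of all genes. An interval above 1 was held by 4.65%, against 20%, and 0 rows were higher by the rule of size, against 8.78%. No shares over only the genes free of overlap, or only those with one, are given here for comparison. Among the rows free of overlap, the large subunit had a median of -0.15 and the small subunit one of -0.069.

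Members often share a start region with another gene. A row on the opposite strand that begins within 1000 bases upstream, or up to 200 bases inside, was found for 21 of 74 members (28.4%), against 12.8% of all genes compared. For 18 of these pairs the neighbour was also at a mean of at least 1 FPKM. In these 18 pairs the neighbours had a median log2 ratio of -0.14 and the members one of -0.17. Log2 ratios below 0 were found for 15 of the 18 neighbours, against 51.9% of all genes compared. In 11 of the 18 pairs both were below 0, and in 7 the member was the lower of the pair. Of all 21 members with a neighbour, which include those whose neighbour was not compared, 16 (76.2%) were below 0. Whether the genes of a pair moved together was not tested. Several neighbours serve mitochondria too. Mrpl36 stands beside Ndufs6, a complex I subunit at 22.8 FPKM in siNC and 19.5 FPKM in siYthdf3, and Mrpl43 beside Twnk, the mitochondrial DNA helicase, at 13.4 FPKM and 14.8 FPKM. Mrps12 stands beside Sars2, their starts 206 bases apart in the table, and the 2 differed most, with log2 ratios of 0.24 and -0.58. The ratio of Sars2 was 0.623 (interval 0.467 to 0.830), below the interval of Mrps12. Mrpl27, at -0.29, stands beside Eme1, a subunit of a DNA repair nuclease, at -0.83, Mrpl51, at -0.18, beside the condensin gene Ncapd2 at -0.50, and Mrpl57, at 0.027, beside the mitotic gene Ska3 at -0.50. These pairs were named after their values were seen.

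**Figure D5:**
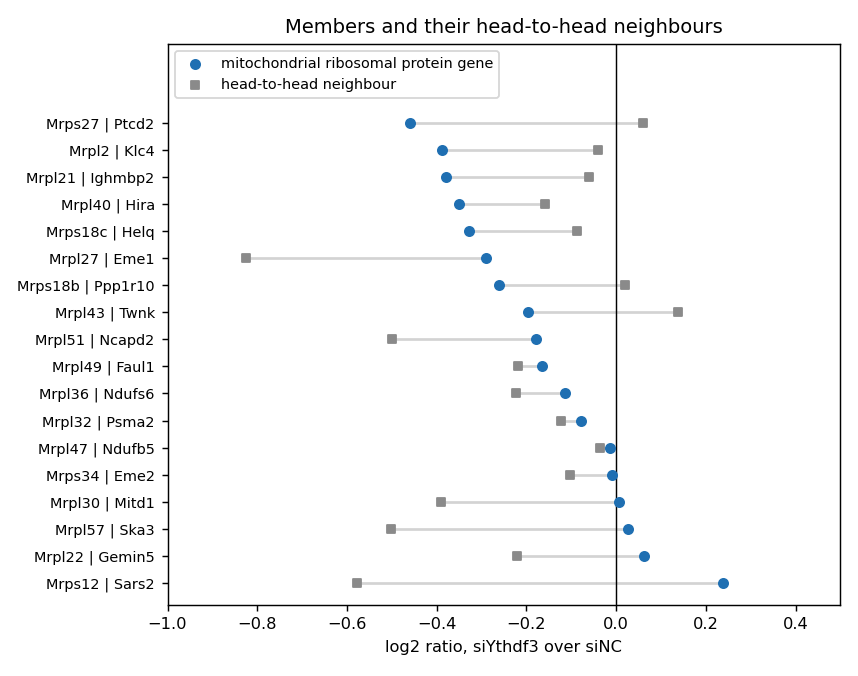
log2 ratio of siYthdf3 over siNC (horizontal axis) for 18 members (blue circles) and the gene that begins head-to-head with each (grey squares), with 1 pair per line, sorted by the member. Mrps12 and Sars2 are furthest apart, at 0.24 and -0.58, and Mrpl47 and Ndufb5 lie close together at -0.014 and -0.036.

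Promoter sequences were taken from RefSeq for the GRCr8 assembly, as windows of 250 bases before to 50 bases after each start, and 60 of the 76 member symbols had an entry. Their median observed-to-expected CpG ratio was 0.796, and 83.3% were above 0.6, against 75.3% of promoters of genes compared and 36.8% of all 27457 promoters. A match on either strand to the YY1 letters AAGATGGC stood in 15 of 60 members (25%), against 5.89% of promoters of genes compared and 3.44% of all. The ETS letters CCGGAAG, read by factors such as GABP, stood in 20 (33.3%), against 18.7% and 9.22%, and the NRF1 letters GCATGCGC in 5 (8.33%), against 5.40% and 2.66%. Wholly upstream of the start the YY1 letters stood in 3 members (5%), against 2.31% of promoters of genes compared, and the ETS letters in 12 (20%), against 16.0%. Matches are letters in a window, and nothing here measured whether a factor was bound. The median log2 ratio was -0.19 for the 14 compared members with the YY1 letters and -0.16 for the 44 without, -0.22 for the 20 with the ETS letters and -0.16 for the 38 without, and -0.12 for the 5 with the NRF1 letters and -0.17 for the 53 without. Of the other motifs, TATAAA stood in 8 members (13.3%), against 6.30% of promoters of genes compared and 14.3% of all. CCAAT stood in 27 (45%), against 38.2% and 37.7%, and CACGTG in 6 (10%), against 9.46% and 6.65%. Among compared members the medians were -0.13 for the 25 with CCAAT and -0.21 for the 33 without. They were -0.19 for the 6 with CACGTG and -0.16 for the 52 without, and -0.29 for the 7 with TATAAA and -0.16 for the 51 without. Mrpl46 and Mrps11 are both among the 7 and share their match. These differences were not tested.

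The 5 NRF1 matches are shown because NRF1 is a known regulator of nuclear genes for mitochondria and because its letters lie at varied distances from the starts. Each is written 5′ to 3′ on the gene's own strand, with the matched letters in capitals. The letters read GCATGCGC or, on the other strand, GCGCATGC, and where both overlap the capitals run together. The spans in GRCr8 are chr1:169575721-169575780 on the minus strand for Mrpl17, chr10:42845855-42845909 on the plus strand for Mrpl22, chr17:55260563-55260622 on the plus strand for Mrpl32, chr9:88554892-88554951 on the plus strand for Mrpl44 and chr20:2842960-2843005 on the plus strand for Mrps18b. Their log2 ratios were -0.14, 0.062, -0.079, -0.12 and -0.26 in the same order, so the matches went with members on both sides of 0.
Mrpl17: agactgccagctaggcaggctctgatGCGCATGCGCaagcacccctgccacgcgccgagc
Mrpl22: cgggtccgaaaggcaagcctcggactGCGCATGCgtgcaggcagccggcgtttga
Mrpl32: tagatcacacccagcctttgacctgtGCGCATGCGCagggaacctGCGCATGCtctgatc
Mrpl44: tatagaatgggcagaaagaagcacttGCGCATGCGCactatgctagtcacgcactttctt
Mrps18b: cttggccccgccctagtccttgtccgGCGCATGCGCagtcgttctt

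The 120 bases before the starts of Mrps27 and Mrps25 are shown because these were the lowest and the most abundant small-subunit members. They were searched for the ETS, NRF1 and YY1 letters. Mrps27, chr2:32474084-32474203 on the plus strand in GRCr8, holds 1 ETS match in reverse, in capitals, that begins 46 bases before the start. Mrps25, chr4:126237213-126237332 on the minus strand, holds none of the 3.
Mrps27: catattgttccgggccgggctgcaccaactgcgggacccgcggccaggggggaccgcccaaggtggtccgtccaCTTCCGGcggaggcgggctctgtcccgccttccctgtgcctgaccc
Mrps25: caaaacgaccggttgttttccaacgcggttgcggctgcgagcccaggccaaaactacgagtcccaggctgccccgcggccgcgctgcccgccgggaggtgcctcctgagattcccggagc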

How the data were processed

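Messenger RNA was measured in 2 libraries, assigned to siNC and siYthdf3 from their titles. According to the labels, a kit that adds random 12-base identifiers to cDNA was used on 1 ug of RNA, with paired 150-base sequencing. Tools in the submitters' processing notes, whose roles are unstated, include StringTie 2.1.4, edgeR 3.40.2, featureCounts, Subread 1.5.1, STAR 2.7.6a and fastp 0.23.2. The sources used here do not state the build, the annotation or whether counting used strand or identifiers.

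FPKM values with gene lengths and coordinates are what the authors deposited, per the file headers. Multiplied by length, 100% of the values came out as whole reads (tolerance 0.05), and these reads set the Clopper-Pearson 95% intervals. The intervals reflect counting error only, and duplicate reads of a molecule would make them too narrow. For a 1-kilobase row at 0 the limit of 3 reads equals 0.195 FPKM (siNC) or 0.133 FPKM (siYthdf3). Log2 ratios were computed here with 0.5 FPKM added, which shrinks those of low genes, on rows averaging at least 1 FPKM. No test was made between single libraries.

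The members and lists were chosen with earlier results of these data known. Subunits follow the symbols, and homology classes were assigned by hand from general knowledge of the protein families. Named members are, per subunit, the 5 lowest and 3 highest ratios and the 3 most and 2 least abundant, then rows 1.5-fold apart, copies, rows under the filter, the Mrps18 family, Mrps30, Mrpl12 and Mrpl58. From each other list come the lowest and highest gene and any 1.5-fold apart. Mrps36 was not analysed here. Overlaps and start regions use the table's coordinates, and promoters are the first RefSeq entry per symbol. The calculation was tested on simulated data. The alternatives tried changed the pseudocount (0.1 or 1 FPKM), the filter, the scaling, the centring, the rows counted and the fold, or removed a lowess trend on length (fraction 0.3). Software was matplotlib 3.10.9, statsmodels 0.14.6, scipy 1.17.1, pandas 2.3.3, numpy 2.4.6 and Python 3.11.15.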

Additional observations from a re-analysis of the deposited data

How the results depend on the processing

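The medians of all members, the large and the small subunit were below 0 under all 13 settings tried. The median of all members lay between -0.17 and -0.083, and the difference of large minus small between -0.077 and 0.0015. It was above 0 with subunits placed by structure and without Mrps25. Rescaling to TPM gave medians of -0.11 for all members, -0.11 for the large and -0.084 for the small subunit, -0.097 with and -0.13 without a bacterial homologue, and 10 members lower by the rule of size. Under it the median of all genes moved to 0.036, and the lists were at -0.0011 for mitochondrial transcription, -0.063 for import, -0.25 for cytosolic ribosomal proteins, -0.12 for the respiratory chain and 0.040 for mitochondrial DNA. Removing the length trend gave -0.083 for all members, -0.091 and -0.070 for the large and small subunit, -0.065 with and -0.11 without a bacterial homologue, 4 members lower and 2 higher. The lists were then at -0.052 for import, -0.21 for cytosolic ribosomal proteins, -0.11 for the respiratory chain and 0.065 for mitochondrial DNA. Rows free of overlap gave -0.13 for all members, -0.069 for the small subunit, a difference of -0.077, 34 members below 0, 11 intervals below 1, 5 lower and 0 higher, on fewer rows. A mean of at least 5 FPKM gave -0.16 for the small subunit, -0.12 for mitochondrial transcription, -0.049 for aminoacyl-tRNA synthesis and 0 members higher. Centring gave -0.29 for cytosolic ribosomal proteins and 0.0019 for mitochondrial DNA, and no filter gave -0.27 for cytosolic ribosomal proteins. With 1 row per symbol and no copies 0 members were higher, a 1.5-fold rule left 1 lower, and without Mrps25 1 interval lay above 1. Except where fewer rows were compared, the cause was not tested. The alternatives without Mrps25, without Mrpl46, with the lower-case rows and with Mrps18a classed without a bacterial homologue were chosen after seeing the data.

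No paired analysis was possible because each group has 1 library. Depth limits the rows with few reads, such as Mrps21l with 5 and 14, Mrpl10 and Mrpl36. Without a second library per group the spread between cultures is unknown, and a difference between the libraries cannot be told apart from one between the treatments.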
